A study of Homo sapiens with 2 samples.

Results

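The genes described here are 10 feedback inhibitors of MAP kinase signalling, namely 6 dual-specificity phosphatase genes (DUSP1, DUSP4, DUSP5, DUSP6, DUSP7 and DUSP10), 3 Sprouty genes (SPRY1, SPRY2 and SPRY4) and SPRED1. They were taken by gene name as a family, with earlier results of these arrays known, and every probe set annotated to 1 of them and to no other gene was taken. This gave 21 of the 54675 probe sets on the array, and 10 of the 13221 genes that were detected. Detection required that either array placed the probe set no lower than its own median, and all 21 met this. The values are RNA signals of bulk cultures, in which fewer expressing cells and less RNA per cell cannot be told apart.

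The cells were A549, a human lung adenocarcinoma line, carrying a lentiviral LV5 vector. In A549-LV5 cells the vector held a random DNA sequence as the control, and in A549-ZNF300 cells it held the coding sequence of transcript variant 1 of ZNF300, a zinc finger gene studied as a transcriptional regulator. Both vectors also carried green fluorescent protein and puromycin resistance. RNA of each was hybridized on 1 Affymetrix Human U133 Plus 2.0 array, so that no difference has a replicate check, no p-value is given and differences between clones or cultures cannot be told apart from the effect of ZNF300. The study screened these profiles for MAPK genes among others, and the comparison below asks how the genes that restrain this pathway differed between both cultures.

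Growth factor receptors such as EGFR switch on RAS, which starts a kinase cascade through RAF and MEK to the kinase ERK. Active ERK induces many genes, among them those that switch it off again. Dual-specificity phosphatases of this class remove phosphate from both the threonine and the tyrosine of active MAP kinases, some acting mainly on ERK and some on the stress kinases JNK and p38. Sprouty and Spred proteins act higher up, between the receptor and RAF. Because transcription of several of them follows ERK activity, their RNA is often read as a sign of pathway output in lung adenocarcinoma and other tumours.

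On the deposited log2 scale, 7 of the 10 genes were lower in A549-ZNF300 and 3 were higher, where 53.4% of all detected genes were lower and 46.6% higher. At least 2-fold lower were 6 genes: SPRY4 (10.5-fold), DUSP6 (6.22-fold), SPRY2 (3.53-fold), DUSP10 (3.09-fold), DUSP7 (2.32-fold) and DUSP5 (2.0-fold). At least 2-fold higher was DUSP4 alone (9.01-fold), while DUSP1, SPRY1 and SPRED1 were less than 2-fold apart. Among all detected genes, 15.4% were at least 2-fold lower and 13.6% at least 2-fold higher, and among the 11192 genes that reached the median in both arrays, which include all 10, the shares were 11.6% and 9.31%. The median log2 ratio of the 10 genes (A549-ZNF300 over A549-LV5) was -1.11, beside -0.06 for all detected genes. With 10 genes chosen as related, these counts describe the family on this pair of arrays and carry no error.

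The region before the start site is shown for the lowest genes, SPRY4 and DUSP6, and for DUSP1, which holds more matches than any other of the 8 genes searched. The 250 bases are from RefSeq on GRCh38.p14. All lie on the minus strand and are written 5′ to 3′ along the gene, with matches to the searched letters in capitals.
DUSP1 (chr5:172771196-172771445): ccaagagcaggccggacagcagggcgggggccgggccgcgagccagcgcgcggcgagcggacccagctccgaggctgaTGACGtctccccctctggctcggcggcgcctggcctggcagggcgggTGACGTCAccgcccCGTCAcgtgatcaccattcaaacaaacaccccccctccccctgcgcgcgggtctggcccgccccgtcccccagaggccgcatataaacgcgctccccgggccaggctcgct
SPRY4 (chr5:142324248-142324497): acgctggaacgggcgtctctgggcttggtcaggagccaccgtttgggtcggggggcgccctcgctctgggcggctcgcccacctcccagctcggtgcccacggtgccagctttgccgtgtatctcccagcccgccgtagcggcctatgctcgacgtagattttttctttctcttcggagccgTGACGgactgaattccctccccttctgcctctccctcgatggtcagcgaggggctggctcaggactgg
DUSP6 (chr12:89352502-89352751): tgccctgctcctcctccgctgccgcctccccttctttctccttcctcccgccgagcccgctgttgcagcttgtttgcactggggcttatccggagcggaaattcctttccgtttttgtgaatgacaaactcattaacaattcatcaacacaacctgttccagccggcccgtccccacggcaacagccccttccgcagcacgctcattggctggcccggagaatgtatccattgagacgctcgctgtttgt

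The promoter of DUSP1 held the full cyclic AMP response element TGACGTCA, starting 125 bases before the start site, and further copies of its shorter form TGACG, which lies within the full element. The promoter of SPRY4 held 1 copy of the shorter form, 68 bases before the start, and that of DUSP6 held no match. RefSeq promoters were at hand for 8 of the 10 genes, with 12 start sites, and each was searched on both strands over 250 bases before and 50 after the start. The full element was found in 1 of the 12 and in 1.85% of 35116 promoters of all genes, and the shorter form in 4 of the 12 and in 24.6%. The ETS letters CCGGAAGT (4.14% of all promoters), the AP-1 letters TGANTCA (7.71%) and the EGR1 letters GCGTGGGCG (0.795%) were in none of the 12, and the ETS core CCGGAA was in 2 of the 12, 1 each of SPRY1 and SPRY2, and in 17.2% of all. The shorter form and the ETS core, which lies within the longer ETS letters, were added after the values were seen. These matches describe the letters of short windows only.

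Signals of the 21 probe sets were distributed as follows. In A549-ZNF300, 13 were lower and 8 higher, with 9 at least 2-fold lower and 3 at least 2-fold higher. Among all detected probe sets that name 1 gene, the 2-fold shares were 15.4% lower and 13.6% higher. Shares at any size were counted over detected genes only, with 53.4% lower and 46.6% higher. Of the 7 genes with more than 1 probe set, 5 had all of them on the same side of 0, the exceptions being SPRY1 and SPRED1. Probe sets of 1 gene read the same RNA and are not replicates, and their spread describes only how far the readings of a gene differ: over 6607 genes with at least 2 detected probe sets, the SD of the log2 ratio had a median of 0.35. A second deposited table gives detection calls for 12 of the 21, of which 11 were called present in both arrays. These 12 are the ones at least 2-fold apart, to which that table is limited, so the others have no call.

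**Figure D1:**
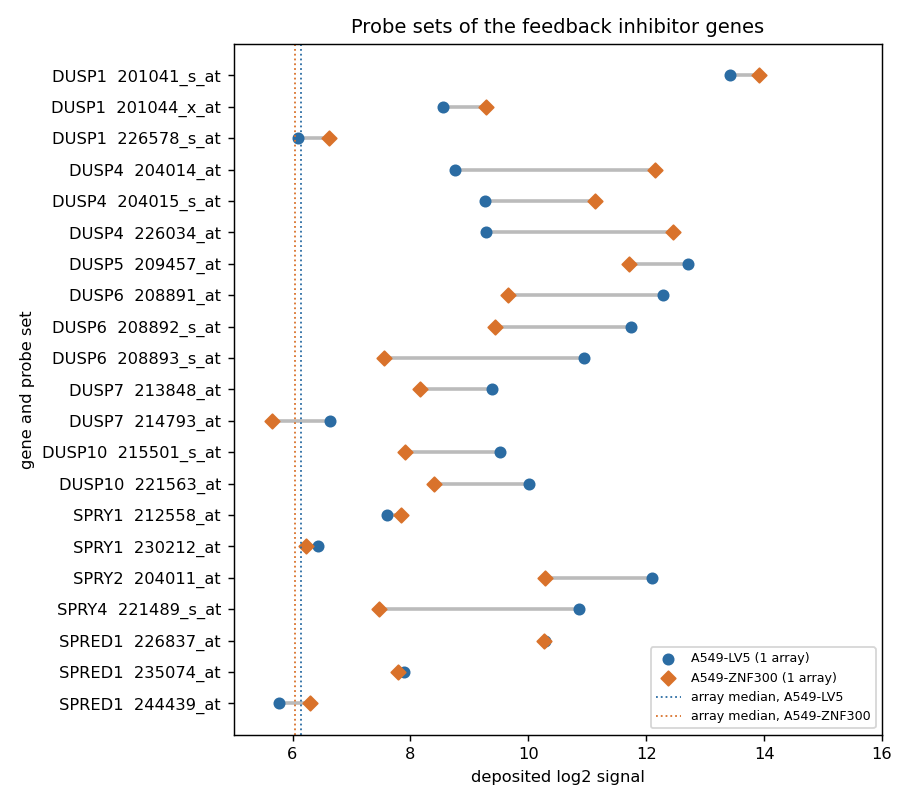
Deposited log2 signal (x axis) of each of the 21 probe sets (y axis, gene and probe set) in A549-LV5 (circles) and A549-ZNF300 (diamonds), 1 array each, with dotted lines at the median of each array. The 3 probe sets of DUSP4 lie to the right in A549-ZNF300, whereas the 3 of DUSP6 and those of SPRY2 and SPRY4 lie to the left.

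Of the 10 genes, the phosphatases that act on ERK in the cytoplasm, DUSP6 and DUSP7, were both lower in A549-ZNF300. DUSP6, also known as MKP-3, binds and dephosphorylates ERK selectively and is a direct product of ERK signalling. Its probe set 208891_at had log2 signals of 12.29 in A549-LV5 and 9.65 in A549-ZNF300, giving a ratio of -2.64. Only 381 of the 13221 detected genes had a lower ratio. Its other probe sets were also lower, from 11.75 to 9.43 for 208892_s_at and from 10.94 to 7.56 for 208893_s_at, the latter called absent in A549-ZNF300. The ratios of the 3 ran from -3.38 to -2.31, and the lowest of them rests on the signal called absent. DUSP7, a close relative of DUSP6 with the same substrate preference, had log2 signals of 9.38 and 8.17 by its brighter probe set, a ratio of -1.21. Its other probe set gave 6.64 and 5.65, just inside 2-fold at -0.99, with the A549-ZNF300 signal below the array median.

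The nuclear phosphatases induced by mitogens differed from each other. DUSP4, also known as MKP-2, dephosphorylates ERK and JNK in the nucleus. Its probe set 226034_at had log2 signals of 9.28 in A549-LV5 and 12.45 in A549-ZNF300. The log2 ratio was 3.17, and 377 of the 13221 detected genes had a higher one. Probe set 204014_at gave 8.76 and 12.16, a ratio of 3.40, and 204015_s_at gave 9.27 and 11.14, a ratio of 1.87. All 3 were called present in both arrays and higher in A549-ZNF300, with an SD between their ratios of 0.83. DUSP4 thus stood on the opposite side of DUSP6, although both are counted among genes induced by ERK.

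DUSP5, a nuclear phosphatase specific to ERK, was measured by 1 probe set with log2 signals of 12.71 and 11.71. Its ratio of -1.0 lay at the 2-fold line. It fell short of 2-fold at -0.90 with the arrays centred on their medians and at -0.94 with centring on housekeeping genes. The 7 housekeeping genes used included TBP, itself at a log2 ratio of -1.16, while the others ran from -0.14 to 0.47. DUSP1, also known as MKP-1, is an immediate early gene and its product acts on p38 and JNK as well as on ERK. It was the reverse of DUSP5 in sign: its brightest probe set, 201041_s_at, gave 13.43 in A549-LV5 and 13.91 in A549-ZNF300, a ratio of 0.48. The other DUSP1 probe sets gave ratios of 0.73 and 0.53, the latter from signals of 6.09 and 6.62 near the array medians. The 3 were closely alike, with an SD of 0.13, and none reached 2-fold.

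DUSP10, also known as MKP-5, is selective for p38 and JNK over ERK. Both of its probe sets were lower in A549-ZNF300, from 10.02 to 8.39 and from 9.52 to 7.91. The ratios of -1.63 and -1.61 differed by far less than the median spread between probe sets, and both were called present in both arrays. The lower signals in A549-ZNF300 were therefore not limited to the phosphatases that prefer ERK.

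Among the Sprouty genes, SPRY4 and SPRY2 were lower and SPRY1 was within 2-fold. SPRY4 and SPRY2 encode membrane-associated inhibitors of receptor tyrosine kinase signalling, and SPRY2 also binds the ubiquitin ligase CBL. SPRY4, with 1 probe set (221489_s_at), had log2 signals of 10.85 in A549-LV5 and 7.47 in A549-ZNF300. Its ratio of -3.39 was the lowest of the family, and 211 of the 13221 detected genes (1.60%) had a lower one. SPRY2, also with 1 probe set, had 12.10 and 10.28, a ratio of -1.82. The calls of both were present in both arrays, but neither has another probe set on which the difference could be read again.

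SPRY1 encodes another inhibitor of the same kind. Its probe sets gave 7.60 and 7.84, a ratio of 0.24, and 6.43 and 6.22, a ratio of -0.21, so that their signs differed. The SD of these ratios was 0.32, near the median SD of 0.35 between probe sets of a gene. SPRED1, which recruits the RAS inactivator neurofibromin to the membrane, had 10.29 in A549-LV5 and 10.27 in A549-ZNF300. Its ratio of -0.02 turned to 0.09 with median centring and to 0.04 with housekeeping centring, and has no settled sign. Its other probe sets gave -0.10 and 0.53, the latter at 5.77 and 6.30 close to the array medians.

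**Figure D2:**
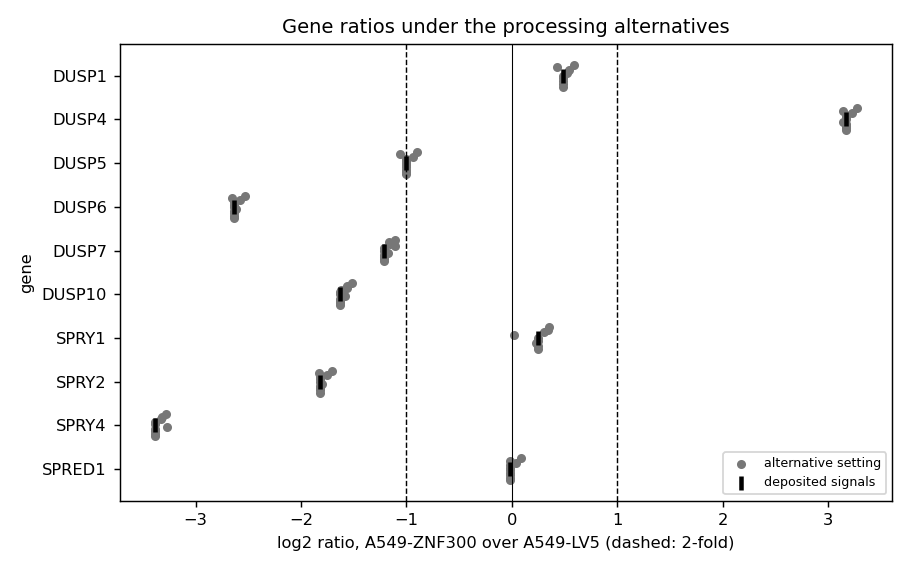
Log2 ratio of A549-ZNF300 over A549-LV5 (x axis) for each of the 10 genes (y axis) from the deposited signals (black bars) and under each alternative processing setting that gave a value (grey points), with dashed lines at 2-fold. DUSP5 crosses the 2-fold line in 2 settings, and SPRED1 crosses 0 in 2.

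The genes were next set beside others of the same families. Of 7 other MAP kinase phosphatase, Sprouty and Spred genes, 4 were detected, with 3 lower, 1 higher and a median log2 ratio of -0.72. Among all detected genes, 53.4% were lower and 46.6% higher. DUSP8, selective for JNK and p38 as DUSP10 is, was lower (-1.86), with log2 signals of 7.51 and 5.64, the latter below the array median, against which the ratio was -1.47. The others, named after their values were seen, were under 2-fold apart: SPRED3 (-0.92), SPRED2 (-0.53) and DUSP16, a JNK phosphatase (0.39). The atypical dual-specificity phosphatases lack the kinase-docking domain and most have other substrates. Of 13 listed, 9 were detected, with 5 lower and 4 higher, near those shares, and a median of -0.27. Those at least 2-fold apart were DUSP18 (-1.46) and DUSP22 (-1.07), which were lower, and DUSP23 (1.34), which was higher. DUSP22 was under 2-fold with median centring, which moved all ratios up by 0.11.

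Other negative regulators of EGFR and RAS, which are not phosphatases, were counted in the same way. Of 13 listed, 11 were detected and 9 were lower, beside 53.4% of all detected genes. The 2-fold line was passed by 6, all of them lower, with a list median log2 ratio of -1.14. SOCS3, counted in this list although it inhibits cytokine receptor signalling, had log2 signals of 11.50 in A549-LV5 and 9.14 in A549-ZNF300 (-2.35). ERRFI1, an inhibitor of EGFR that EGF itself induces, had 13.75 and 11.96 (-1.80). Of the RAS GTPase-activating protein genes, RASAL2 (-1.91) and RASAL1 (-2.14) were lower, the latter with an A549-ZNF300 signal under the array median, against which its ratio was -1.10. Others of that kind, named after their values were seen, were within 2-fold, with NF1 at 0.36 and RASA2 at -0.08. The A549-LV5 signal of NF1 (5.91) was under the array median, against which its ratio was 0.13. The background of 15.4% of detected genes at least 2-fold lower and 13.6% at least 2-fold higher applies to all of the related lists.

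Other genes that ERK induces, which include ligands of EGFR, had a median log2 ratio of -0.85. Of 18 listed, 17 were detected, with 15 lower and 2 higher, beside the same 53.4%. Of these, 8 were at least 2-fold lower and ETV4, named after its value was seen, was 1.01 higher on the log2 scale. Also named after their values were seen, ETV5 (-0.08) and ETV1 (-0.30) were under 2-fold apart. EPHA4 was the other higher gene (0.83), with an A549-LV5 signal under the array median, against which its ratio was 0.20. HBEGF, a ligand of EGFR, had 12.81 and 8.18, a ratio of -4.62. FOSL1, an AP-1 subunit, had -2.45, EGR1, an immediate early transcription factor, -2.22, and LIF, a cytokine of the IL-6 family, -1.80. Of the kinases themselves and their activators, 11 of 18 listed genes were detected. With a median of -0.30, 6 were lower and 5 higher, near the 53.4% and 46.6% of all detected genes. None was at least 2-fold lower, and HRAS alone was at least 2-fold higher (1.46), beside 15.4% and 13.6% of all detected genes. A probe set naming 1 gene was at hand for 12 of the 18, and the other kinases are not analysed here. Several genes of these lists were known from earlier results of these arrays, so their counts add no independent evidence of a direction.

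**Figure D3:**
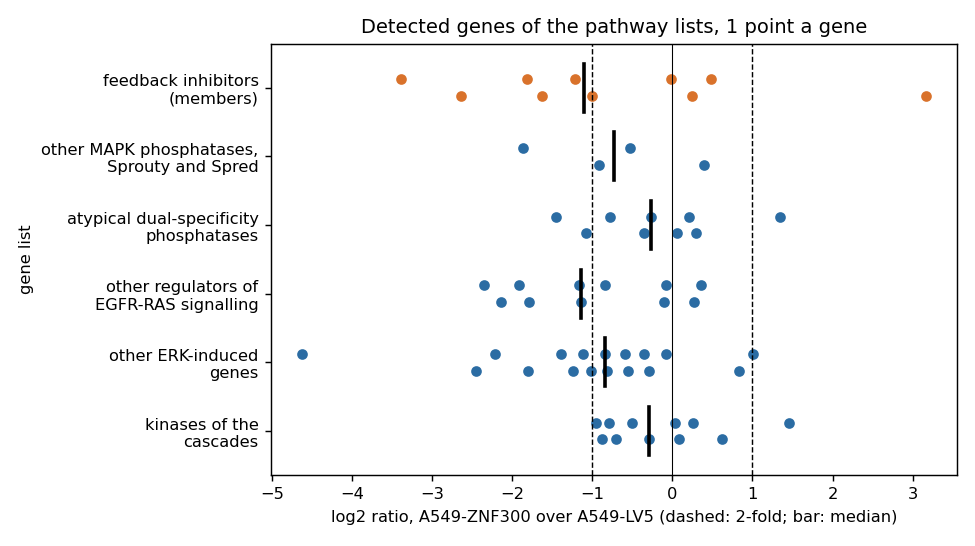
Log2 ratio of A549-ZNF300 over A549-LV5 (x axis) of each detected gene (points) in the feedback inhibitor family and 5 related lists (y axis), with a black bar at the median of each list and dashed lines at 2-fold. Medians lie at -1.11 for the family and -1.14 for other regulators of EGFR and RAS, and at -0.30 for the kinases.

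Each of the 10 genes was also set beside the 10 nearest detected genes on each side in the order of GRCh38.p14. The medians of these neighbours ran from -0.29 for DUSP5 to 0.58 for DUSP6. DUSP6 differed from the median of its neighbours by -3.21 on the log2 scale, and 15 of these 20 genes were higher in A549-ZNF300. SPRY4 had neighbours with a median of -0.25 and SPRY2 of 0.24, and those of DUSP4 had 0.24, with 14 of 20 higher. Differences from the neighbours' median were 2.93 for DUSP4, -3.14 for SPRY4 and -2.06 for SPRY2. For DUSP5 the neighbours were lower in 15 of 20, and its difference from them was -0.72, short of 2-fold. DUSP7 was also short of 2-fold, at -0.94 from its neighbours, of which 7 of 20 were at least 2-fold lower. Beside these counts, 46.6% of all detected genes were higher, 53.4% were lower and 15.4% were at least 2-fold lower. The difference of DUSP10 was -1.42.

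**Figure D4:**
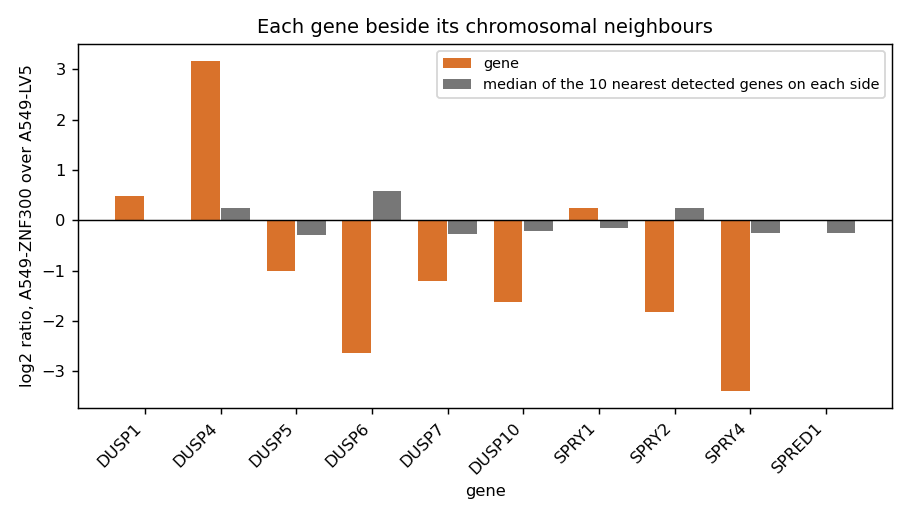
Log2 ratio of A549-ZNF300 over A549-LV5 (y axis) of each of the 10 genes (orange bars) and the median of the 10 nearest detected genes on each side of it (grey bars), by gene (x axis). The grey bars lie between -0.29 and 0.58, while the orange bars of SPRY4 and DUSP4 reach -3.39 and 3.17.

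In the order of all detected genes by log2 ratio, those next to DUSP4 were TP73, BAIAP2L2, GBGT1 and CHRNA9, within 0.0065 of its ratio, and those next to SPRY4 were SEMA5B, KRT32, SHOX2 and FNDC11, within 0.035. Likeness here means only a like ratio over 2 arrays. The 4 next to DUSP4 had log2 signals between 2.97 and 3.96 in A549-LV5, below the array median, unlike DUSP4 itself. Of those next to SPRY4, SEMA5B (4.21), KRT32 (3.20) and FNDC11 (3.05) were below the array median in A549-ZNF300, unlike SPRY4.

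Checks of the whole series gave the following. ZNF300 had a log2 signal of 4.16 in A549-LV5 and 8.91 in A549-ZNF300, as its label says. The array medians were 6.14 and 6.03, the log2 ratios of 9 spiked controls ran from -0.16 to 0.03, and 3′ over 5′ signal was 1.01 and 0.99 for GAPDH and 1.98 and 1.62 for ACTB. Of 9 markers listed for A549, 8 were detected and 7 were higher in A549-ZNF300, 6 of them at least 2-fold. The shares of all detected genes were 46.6% higher and 13.6% at least 2-fold higher. The epithelial keratin gene KRT19 was below the array median in A549-LV5 (2.29) and at 11.08 in A549-ZNF300, and KRT8 had 9.77 and 14.09. Of 6 markers of other cell types, PTPRC and PDGFRB were under the median in both arrays, PECAM1, HBB and SFTPC lay between 6.12 and 7.04, and COL1A1, a fibroblast collagen, was higher in A549-ZNF300 (10.45 against 7.90, a log2 ratio of 2.55, with 0.40 by its other detected probe set). The part of these differences between both cultures in the signals of the feedback inhibitors was not tested.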

How the data were processed

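Total RNA of A549-LV5 and A549-ZNF300 cells was measured on 1 Affymetrix Human U133 Plus 2.0 array each. The deposited values are log2 signals of 54675 probe sets, already normalized when the authors submitted them. Their processing notes name MAS5 and the affy package and the study's methods name SCAN/UPC, and which made the values is not settled by these sources. A smaller deposited table holds the same signals for 8187 probe sets with detection calls, plus ratio and direction columns of the authors' own comparison, which were not used.

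Probe sets were named by the platform annotation of GEO, where 41097 name 1 gene, 1801 several and 11777 none, and only the first were used. A gene was read from its brightest detected probe set by mean log2 signal. Log2 ratios are A549-ZNF300 minus A549-LV5, and a gene counted as apart at 2-fold. With 1 array per group no test was run, and precision is limited by having 2 arrays. The gene step was tested on simulated data, in which all probe sets of a gene shared the same ratio apart from small noise. That checks the calculation only, not the measured ratios. Promoter letters came from RefSeq tables (GRCh38.p14), protein sequences were not used here, and 13204 of 13221 detected genes could be placed on a chromosome. The text names all members, ZNF300, up to 4 genes of each related list that were at least 2-fold apart, by size, and the 2 genes next to the highest and the lowest member on each side. Members and lists were chosen with earlier results of these data known. Alternatives covered scaling, dim signals, probe set choice, filters and folds of 1.5 and 3. Python 3.11.15, numpy 2.4.6, pandas 2.3.3 and matplotlib 3.10.9 were used.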

Additional observations from a re-analysis of the deposited data

How the results depend on the processing

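With 1 array per group, no replicate could be left out. The count of feedback inhibitor genes at least 2-fold lower was 6 with the deposited signals. It was 5 with median or housekeeping centring, where DUSP5 fell short and where 13.4% and 14.1% of all detected genes were lower. Without probe sets ending in _x_at or _s_at, which left out SPRY4 and DUSP1, the count was also 5, beside 16.4% of all. The count was 4 at 3-fold, where 7.59% of all detected genes were lower, and 6 at 1.5-fold, where 26.5% were. In the authors' smaller table it was 6, where 53% were at least 2-fold lower. Under the other alternatives it was 6, where 11.6% to 19.5% were. DUSP4 alone was at least 2-fold higher under all of them. The shares of all genes higher were 7.64% at 3-fold, 22.5% at 1.5-fold and 47% in the smaller table. Elsewhere they ran from 9.31% to 17%. The median log2 ratio of the genes was -1.63 in the authors' smaller table, which holds 7 of the 10 genes, all at least 2-fold apart by its construction, and lay between -1.21 and -1.0 under the other alternatives. When signals under the array median were set to it, the second probe set of DUSP7 had a log2 ratio of -0.61 and the third of SPRED1 one of 0.16. Under the 3 scaling alternatives, which were added for the related lists after seeing the data, the lists kept their counts apart from ERK-induced genes at least 2-fold lower (7 to 8) and atypical phosphatases at least 2-fold lower (1 to 2). At 1.5-fold, 4 of 11 kinases of the cascades were lower and 2 higher, beside 26.5% and 22.5% of all detected genes. At 3-fold, 4 of 17 ERK-induced genes and 0 of 9 atypical phosphatases were lower, beside 7.59% of all. The deposited log2 signals carry no background estimate, so values near the array median are bounded only by it.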

Other observations

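Some genes of the related lists had detected probe sets that disagreed. The log2 ratio of EPHA4, an Eph receptor gene, was 0.83 by the probe set used here and 6.93 by another. For CBL, the ubiquitin ligase gene, the probe sets ran from -1.47 to 0.25, for RASAL2 from -1.99 to -0.31 and for PLAUR, the urokinase receptor gene, from -0.46 to 1.06. For EGFR, 7 probe sets ran from -1.65 to 0.69. These genes were picked for this spread after their values were seen, and within the feedback inhibitors the widest spread was that of DUSP4, from 1.87 to 3.40.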
